A study of Homo sapiens
Mus musculus with 16 samples.

Results

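The comparison described here is alpelisib alone against vehicle in the human transcripts of ScaBER xenografts, that is, in the tumour cells. ScaBER is an established cell line from a human bladder squamous carcinoma, grown here as tumours in athymic nude mice (Hsd:Athymic Nude-Foxn1nu), which lack a functional thymus and so most mature T cells. The vehicle group received methylcellulose with Tween80 for 14 days, and the alpelisib group received alpelisib (BYL719) at 25 mg/kg for 14 days. Each group has 4 libraries, so the difference is between 8 of the 16 libraries of the series. The SE and limma p-values of each gene rest on the spread within groups over all 16 libraries. The other 8 libraries are 4 of tumours given nintedanib at 40 mg/kg for 14 days and 4 of tumours given both drugs at those doses for the same time. They serve as a second setting in which the presence of alpelisib can be compared with its absence. A gene was tested where its value was at least 1 in at least 4 of the 16 libraries, which kept 17663 of the 23368 genes in the human table. The series was made to learn what lies behind the joint action of both drugs in vivo, in tumour and in stroma.

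Alpelisib inhibits p110alpha, the catalytic subunit of class I phosphoinositide 3-kinase that PIK3CA encodes. Receptor tyrosine kinases recruit this kinase to the membrane, where its lipid product activates AKT. AKT keeps FOXO transcription factors out of the nucleus and promotes mTORC1 activity, protein synthesis and glucose and lipid metabolism. In stratified squamous epithelia, basal cells with KRT5 and KRT14 divide, and cells that leave the basal layer switch on other keratins. They end as flattened cells whose membrane is replaced by the cornified envelope, a crosslinked shell of loricrin, involucrin, small proline-rich proteins and late cornified envelope proteins. Kallikrein proteases then cut the corneodesmosomes that hold these cells together. Many of the envelope genes lie side by side on chromosome 1 in a block known as the epidermal differentiation complex.

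Human reads per library ran from 12642711 to 18382593 with alpelisib and from 12099860 to 16777951 with vehicle. The deposited values are reads divided by 1 factor per library, and they are called normalized values below. Squamous markers were abundant in the 8 libraries compared. KRT5 stood at 54180 to 103700, KRT14 at 72510 to 138400 and TP63, the regulator of squamous fate, at 596 to 1186. Markers of luminal urothelium were low, with UPK3A at 0 to 1.13, UPK2 at 0 to 15.7 and KRT20 at 1.70 to 6.08, while GATA3 stood at 108 to 258 and FOXA1 at 10.6 to 50.9. Mouse reads were 22.2% ± 2.10 (SD, n = 4) of all reads with vehicle and 26.0% ± 3.65 (SD, n = 4) with alpelisib, a difference of 3.77 percentage points (2-sided exact permutation test, p = 0.143, where 4 against 4 libraries can reach 0.0286). Without alpelisib 1 the difference was 5.53 points, with an exact permutation p of 0.0286, the smallest that so few libraries can reach. When any other library of these groups was left out, the exact permutation p ran from 0.143 to 0.257. Libraries of both groups stood apart in their host tissue. In alpelisib 1 the summed value of 17 mouse skin and hair markers was 13252, against 1790 to 2811 in the other alpelisib libraries and 1519 to 4404 with vehicle. In vehicle 1 the sum of 12 mouse adipocyte markers was 23371, against 356 to 1728 in the other vehicle libraries and 619 to 15616 with alpelisib, and in alpelisib 3 the macrophage sum was 33933, against 21399 to 21780 in the others of its group. The sum of 16 mouse skeletal muscle markers was 34744 in vehicle 2 and 19825 in alpelisib 2. It was 205 to 8518 in the other vehicle libraries and 194 to 5767 in the other alpelisib libraries. The part of this tissue in the results was not tested. Each list of squamous genes is given below with its median without alpelisib 1. Of 33 gene lists, the median of 16 changed sign when some 1 of the 8 libraries was left out, and these are named where they appear.

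No gene passed the threshold. With limma and Benjamini-Hochberg adjustment over all genes tested, 0 of 17663 genes (0%) had an adjusted p under 0.05, and the smallest adjusted p was 0.0817, for WFDC12. At an unadjusted p under 0.05 there were 438 genes, where 883 would be expected with no difference at any gene. Of the 438, 298 (1.69% of genes tested) were higher with alpelisib and 140 (0.793%) were lower. The 4 alpelisib values lay above all 4 vehicle values in 218 genes (1.23%) and below them in 121 (0.685%). The median log2 difference over all genes was 0.0055. edgeR's quasi-likelihood test also called 0 genes, with 450 at an unadjusted p under 0.05, and DESeq2 called 1, WFDC12, with 403. Everything below is therefore a description of levels and of unadjusted differences, to be read against these shares. Nothing in the labels ties a library to an animal of its own, and the p-values therefore rest on a spread that may be technical. In bulk tumours, fewer cells of a kind and less RNA per cell cannot be told apart.

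WFDC12, which encodes a small secreted protease inhibitor of the whey acidic protein family, had normalized values of 16.2, 27.9, 22.9 and 26.0 in vehicle 1 to 4. In alpelisib 1 to 4 it stood at 136, 145, 75.2 and 93.2. Every alpelisib library was at least 75.2 and every vehicle library at most 27.9, so the groups did not overlap. The mean was 23.3 ± 5.14 (SD, n = 4) with vehicle and 112 ± 33.6 (SD, n = 4) with alpelisib, a ratio of 4.83 and a log2 difference of 2.20 (SE 0.37). Its mean over the 16 libraries is below the median of the genes tested. It was picked after its values were seen.

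Among genes of at least median expression, those that separated the groups best on the higher side were mostly genes of terminal squamous differentiation. The 12 with no overlap and the smallest p were SPRR2G, CEACAM6, LCE1B, CDSN, KRT80, LCE2C, MMP13, LCE1C, LCE2B, KLK10, KLK12 and SPRR2A. Expression was the mean over all 16 libraries, so a gene could enter through the groups where it was high. With vehicle the means of LCE1B (40.9), LCE2C (45.5), KLK12 (81.5), LCE2B (85.7) and LCE1C (90.2) lay under that median of 109.4. The make-up of these 12 therefore depends in part on the rule. SPRR2G, a small proline-rich protein of the cornified envelope, had values of 618, 634, 356 and 497 with vehicle and 1922, 1245, 1575 and 1529 with alpelisib. The lowest alpelisib library lay well above the highest vehicle library, and the log2 difference was 1.59 (SE 0.36, limma adjusted p = 0.916). With limma on the vehicle and alpelisib libraries alone the adjusted p was 0.0597, the lowest of 21 alternatives and still above the threshold. The log2 difference ran from 1.42 to 1.70 over them.
CEACAM6, a cell adhesion glycoprotein of the carcinoembryonic antigen family, read 177, 145, 149 and 109 with vehicle and 359, 282, 352 and 287 with alpelisib (log2 1.15, SE 0.26). The alpelisib libraries were close to each other here, and alpelisib 1 was not set apart from alpelisib 3. CDSN, corneodesmosin, the glue of cornified cells, read 221, 288, 242 and 234 with vehicle. With alpelisib it read 1039, 515, 714 and 391.7 (log2 1.34, SE 0.34), highest in alpelisib 1 and lowest in alpelisib 4. KRT80, a keratin of differentiating epithelium, read 768, 653, 545 and 652 with vehicle and 1763, 1233, 1607 and 826 with alpelisib (log2 1.003, SE 0.26), in the same order of libraries as CDSN.

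**Figure D1:**
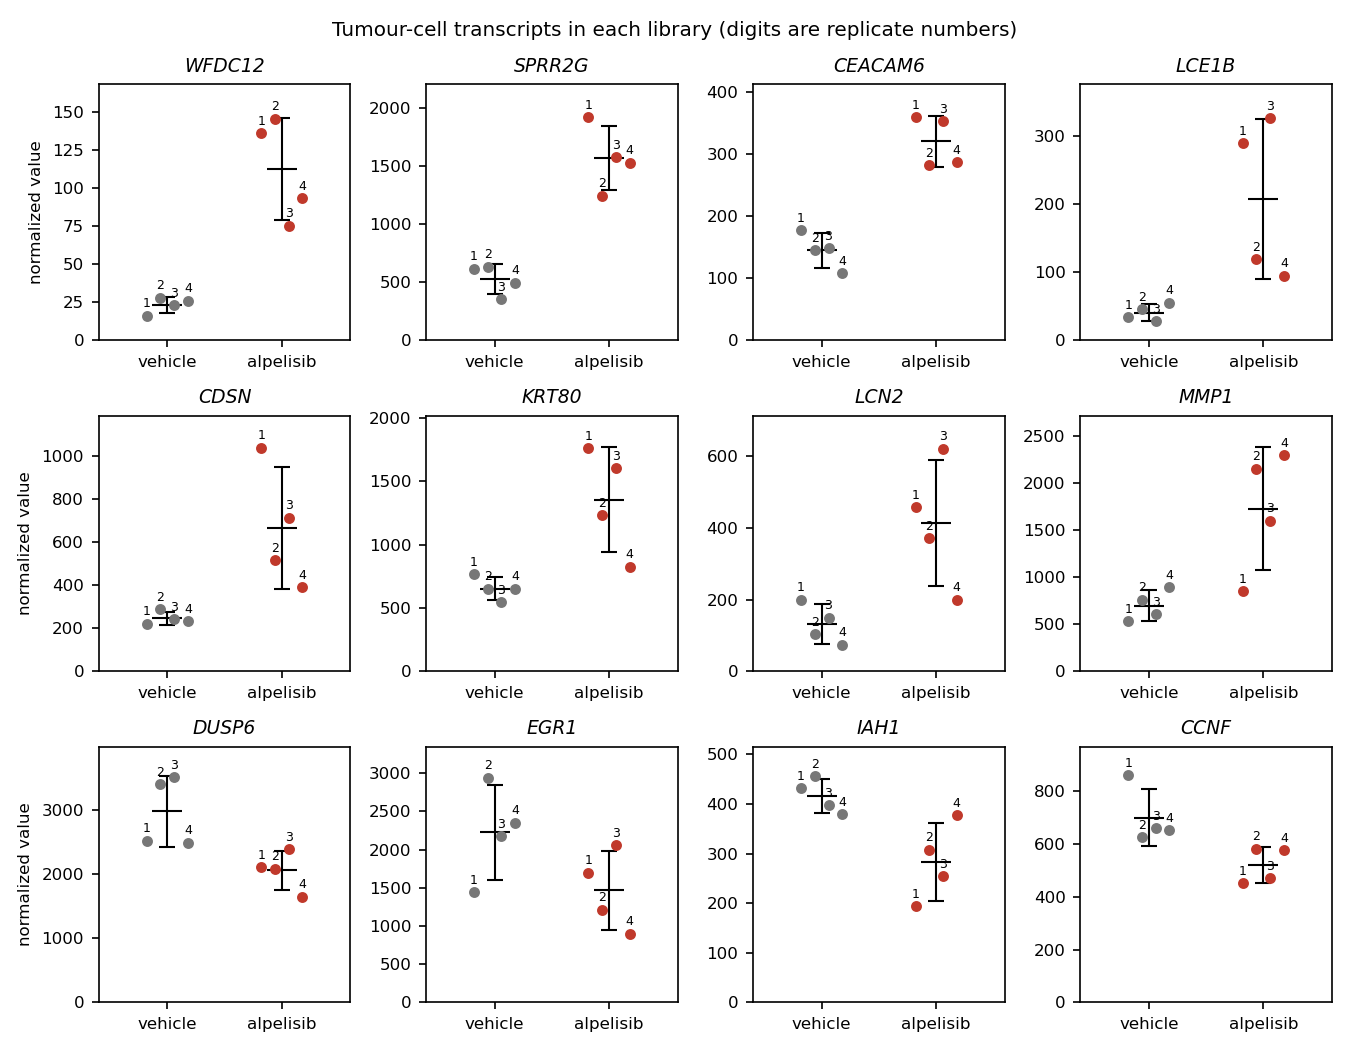
Normalized value (vertical axis, linear from 0) of 12 genes in the 4 vehicle and 4 alpelisib libraries, each point 1 library marked with its replicate number, bars the mean and SD. In WFDC12, SPRR2G, CEACAM6, LCE1B, CDSN and KRT80 every alpelisib library lies above every vehicle library, in LCN2 and MMP1 1 library of each group crosses, in EGR1 the groups overlap, and in DUSP6, IAH1 and CCNF every alpelisib library lies below.

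On the lower side the 12 genes by the same rule were DUSP6, GXYLT1, LOC100507127, RABL2B, IAH1, CCNF, NPC1, SGPP1, NEK6, C2orf69, BRK1 and CPSF7. Their log2 differences ran from -0.69 (LOC100507127) to -0.28 (CPSF7), smaller than any on the higher side but KLK10. DUSP6, a phosphatase that ERK signalling induces and that inactivates ERK, read 2520, 3405, 3511 and 2493 with vehicle and 2109, 2085, 2387 and 1648 with alpelisib (log2 -0.53, SE 0.20). The highest alpelisib library was just under the lowest vehicle library. Human DUSP6 is among 1066 of 13416 genes whose values correlated with those of the mouse gene of the same symbol over the 16 libraries (Pearson r over 0.7), and the part that host reads play in it was not tested. The same holds for FGFR2, CYR61, PFKP, P4HA2, VEGFA, VLDLR and BBC3, whose values are given below.
IAH1, an esterase, read 432, 456, 398 and 380 with vehicle and 194, 308, 255 and 377 with alpelisib (log2 -0.59, SE 0.25), with alpelisib 4 only just below vehicle 4. CCNF, cyclin F, the substrate receptor of a ubiquitin ligase that peaks in G2 phase, read 859, 626, 659 and 651 with vehicle and 451, 582, 470 and 575 with alpelisib (log2 -0.42, SE 0.18). NPC1, which exports cholesterol from lysosomes, was 188 ± 34.2 in vehicle libraries and 133 ± 10.9 in alpelisib libraries (SD, n = 4 each). SGPP1, a phosphatase of sphingosine 1-phosphate, differed by -0.45 (SE 0.20), and NEK6, a mitotic kinase, by -0.52 (SE 0.23). GXYLT1, a xylosyltransferase that acts on Notch, differed by -0.56 (SE 0.22). BRK1, a subunit of the WAVE actin regulatory complex, differed by -0.36 (SE 0.18) and CPSF7, a pre-mRNA 3′ end processing factor, by -0.28 (SE 0.14). RABL2B, with a log2 difference of -0.40, has a near-identical copy in the genome, so its count is uncertain, and C2orf69 differed by -0.52.

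A pair of weakly expressed genes, chosen after their values were seen, had the most extreme fitted differences of all. CDRT1 read 6.67, 15.6, 6.79 and 2.26 with vehicle and 0, 0, 0 and 1.05 with alpelisib. TJP3, a tight junction scaffold protein, read 0, 0, 0.849 and 0 with vehicle and 4.56, 9.40, 3.86 and 6.28 with alpelisib. Both rest on a few reads per library, and their adjusted p-values by limma were 0.916 and 1.

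Cornified envelope genes had the highest median of the 33 lists. Of 32 members tested, 30 were above vehicle, with a median log2 difference of 0.815 against 0.0055 for all genes, and 16 had an unadjusted p under 0.05, all higher (1.69% of all genes were). No overlap was seen in 5 members, CDSN, ALOX12B, SPRR2A, SPRR2E and CRCT1 (1.23% of all genes lay wholly above). Without alpelisib 1, the library with mouse skin transcripts, 29 of 32 were above vehicle, the median was 0.634 and 7 had an unadjusted p under 0.05. Without vehicle 3 the median was 0.600 and 9 members reached it.
ALOX12B, a lipoxygenase that takes part in forming the lipid envelope of cornified cells, read 16.2, 34.6, 29.7 and 12.4 with vehicle and 57.0, 57.5, 51.1 and 49.2 with alpelisib (log2 1.28, SE 0.38). Its alpelisib values were nearly equal, so alpelisib 1 did not stand out. LCE3E read 541, 1189, 539 and 764 with vehicle and 2417, 1868, 2688 and 909 with alpelisib (log2 1.34, SE 0.40), and alpelisib 4 lay inside the vehicle range.
Some structural proteins of the barrier differed less. LOR, loricrin, the most abundant envelope protein of skin, read 565, 869, 413 and 312 with vehicle and 2033, 1079, 1027 and 393 with alpelisib (log2 0.95, SE 0.41), and stood at 0.595 without alpelisib 1. FLG, profilaggrin, which bundles keratin in cornified cells, read 1110, 1588, 1110 and 679 with vehicle and 3370, 1865, 1543 and 968 with alpelisib (log2 0.70, SE 0.32), and stood at 0.390 without alpelisib 1. IVL, involucrin, an early envelope component, read 633, 751, 388 and 570 with vehicle and 1168, 1056, 828 and 512 with alpelisib (log2 0.58, SE 0.26). In all 3 of these genes alpelisib 1 was highest and alpelisib 4 lay within the vehicle values. FLG, LOR and IVL were picked after their values were seen.

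Seen along chromosome 1, the higher values lay side by side. In RefSeq gene order, 93 genes lie from S100A10 to S100A1, 62 of them protein-coding, and 55 of the 62 in the human table were tested. The S100A genes sit at both ends and encode small calcium-binding proteins, and 40 tested genes lie between them. All 40 were above vehicle, with a median log2 difference of 1.12, from 0.10 (PGLYRP4) to 2.17 (LCE1B). Of the 40, 26 had an unadjusted p under 0.05 and 10 did not overlap. Among all genes those shares on the higher side were 1.69% and 1.23%. The 15 tested S100A genes at the ends had a median of 0.033 (-0.016 when scaled to human plus mouse reads), with 8 above vehicle and 7 below, and 0 at an unadjusted p under 0.05. That median was -0.085 without alpelisib 1, and it was also below 0 without alpelisib 3, vehicle 2 or vehicle 4. Next to the block, S100A11 on one side stood at 0.03, while on the other side S100A9 (0.51), S100A12 (0.56), S100A7A (0.66) and S100A7 (0.34) stood above PGLYRP4, the last gene of the block. RPTN, inside it, stood at 0.17. One of the S100A genes, S100A14, lay wholly below vehicle (14900 and 12900 as group means, log2 -0.20).
This block was chosen with results of these data known, and its limits were taken from gene order. The late cornified envelope genes and the SPRR2 genes are near-identical copies, and reads of 3′ ends may be assigned among them with error, so single members are uncertain. Without alpelisib 1, 39 of 40 genes were above vehicle with a median of 1.04, and 17 had an unadjusted p under 0.05. Without alpelisib 3 it was 38 of 40 and 1.04, and without vehicle 3 the median was 0.911, again with 17. Of these genes, 28 share a symbol with a mouse gene. Their summed mouse value was 4913 in alpelisib 1, 17.7 to 163 in the other alpelisib libraries and 13.8 to 95.5 with vehicle. Their summed human value was 42450 in alpelisib 1, 21890 to 32980 in the other alpelisib libraries and 14740 to 25380 with vehicle. None of the 28 human genes correlated above 0.7 with its mouse gene, and the highest r was 0.422.

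**Figure D2:**
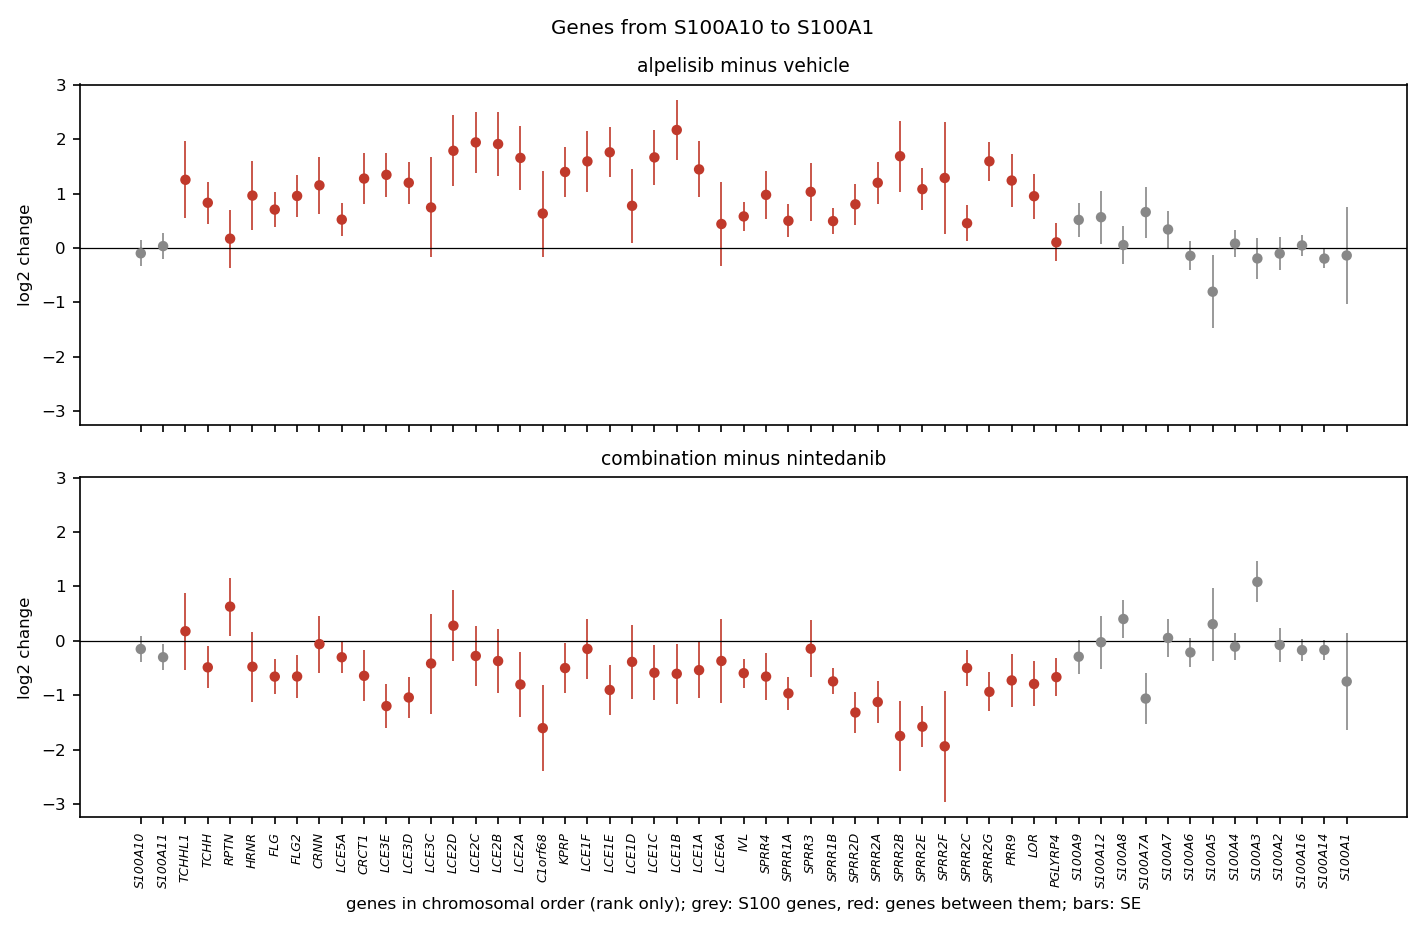
Log2 difference (vertical axis, points with SE bars) of the 55 tested genes from S100A10 to S100A1 in chromosomal order by rank (horizontal axis), for alpelisib minus vehicle above and for the combination minus nintedanib below. S100A genes are grey and the 40 genes between them red. All 40 lie above 0 in the upper panel, and 37 lie below 0 in the lower.

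Within the block, the late cornified envelope family had the highest values. The human table lists 18 of its genes, and 15 were tested. All 15 were above vehicle, with a median of 1.59. An unadjusted p under 0.05 was seen in 11 and no overlap in 5 (1.69% and 1.23% of all genes, higher side). Without alpelisib 1 the median was 1.39, again with 11. LCE1B read 34.3, 45.8, 28.0 and 55.4 with vehicle and 290, 119, 327 and 95.3 with alpelisib (log2 2.17, SE 0.55). Alpelisib 1 and 3 were far above alpelisib 2 and 4, which were themselves above each vehicle library. LCE2C differed by 1.94 (SE 0.56), LCE2B by 1.91 (SE 0.58), LCE1E, picked after its values were seen, by 1.76 (SE 0.46) and LCE1C by 1.66 (SE 0.51), each with that order of alpelisib libraries (1 and 3 above 2 and 4).
A family score, the median over members of the log2 deviation from the vehicle mean, was 2.16, 0.941, 2.46 and 0.490 in alpelisib 1 to 4 and -0.200, 0.603, -0.352 and 0.089 in vehicle 1 to 4. By this score vehicle 2 was above alpelisib 4. The 11 small proline-rich protein genes were all above vehicle, with a median of 1.03. Of these genes, 6 had an unadjusted p under 0.05 and 3 did not overlap (1.69% and 1.23% of all genes, higher side). Their score was 1.32, 0.913, 1.08 and 0.823 with alpelisib and 0.128, 0.611, -0.516 and -0.206 with vehicle, so the groups did not overlap, and the spread among alpelisib libraries was narrower than in the late cornified envelope family. The median of the small proline-rich genes was 0.600 without vehicle 3 and 0.927 without alpelisib 1, with 3 at that p in the latter. SPRR2E read 1641, 2396, 1132 and 1360 with vehicle and 4555, 3361, 2690 and 2938 with alpelisib (log2 1.08, SE 0.38), and SPRR2A differed by 1.20 (SE 0.38).

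Kallikreins and their inhibitors, 14 tested, had 12 members above vehicle and a median of 0.600. At an unadjusted p under 0.05 there were 6, all higher, and 2 did not overlap (1.69% and 1.23% of all genes, higher side). The median was 0.542 without alpelisib 1, with 3 members at that p. KLK10, a secreted serine protease, read 1239, 1021, 880 and 1153 with vehicle and 1647, 1790, 1462 and 1517 with alpelisib (log2 0.59, SE 0.18). KLK12 read 89.6, 134, 39.1 and 63.3 with vehicle and 274, 167, 145 and 146 with alpelisib (log2 1.24, SE 0.40). Both were separated, KLK12 with a wide spread in both groups. SPINK5, the inhibitor that restrains epidermal kallikreins, read 1301, 2044, 1421 and 829 with vehicle and 3860, 2675, 2577 and 2022 with alpelisib (log2 1.03, SE 0.27), with alpelisib 4 just under vehicle 2.

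Suprabasal and simple-epithelial keratins, 16 tested, had 14 members above vehicle and a median of 0.370, which was 0.187 without alpelisib 1. KRT80, KRT23 and KRT2 had an unadjusted p under 0.05, and those 3 and KRT13 did not overlap. Among all genes those shares on the higher side were 1.69% and 1.23%. KRT23 read 78.1, 106, 61.1 and 56.5 with vehicle and 235, 171, 108 and 119 with alpelisib (log2 1.04, SE 0.37). KRT15 is a keratin of basal progenitor cells, though this list holds it and it counts among the 14 above vehicle. It differed by 0.42 (SE 0.24) and overlapped. KRT2 was near 0 in vehicle libraries (mean 0.212) and low with alpelisib (3.02). KRT10, a suprabasal keratin picked after its values were seen, read 7136, 7807, 7954 and 7418 with vehicle and 15363, 10331, 8667 and 7534 with alpelisib (log2 0.41, SE 0.29), and the difference was 0.212 without alpelisib 1. Of the basal and stress keratins, 3 of 8 were above vehicle, the median was -0.057 and 0 had an unadjusted p under 0.05. The sign of that median was not stable. It was -0.109 with 1 of 8 above vehicle without alpelisib 1, but 0.088 without vehicle 1, 0.049 without vehicle 3, 0.074 without alpelisib 4 and 0.030 after quantile normalization. KRT14 differed by -0.20 (SE 0.32), KRT75 by -0.30 (SE 0.28) and KRT16, a stress keratin, by 0.46 (SE 0.31). Without alpelisib 3 KRT16 stood at 0.244 and without alpelisib 4 KRT14 stood at -0.062.

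Other genes of the squamous surface showed smaller differences. Clade B serpins, intracellular protease inhibitors, had 10 of 12 members above vehicle and a median of 0.231. SERPINB7 (log2 0.87, SE 0.34) and SERPINB2 (0.64, SE 0.27) had an unadjusted p under 0.05 (1.69% of all genes were higher at that p). In both, alpelisib 4 lay within the vehicle range. SERPINB10, at values of 3.35 to 14.5, differed by 0.92 (SE 0.50). Without alpelisib 1, 0 serpins had an unadjusted p under 0.05, with a median of 0.243, and without vehicle 1 it was again 0. The serpin median ran from 0.100 without alpelisib 2 to 0.493 without vehicle 2. The S100 list, 16 tested, had a median of 0.047, which was 0.060 without alpelisib 1, -0.0055 without vehicle 2, -0.015 without vehicle 4 and -0.0012 when scaled to human plus mouse reads. S100A9, a subunit of calprotectin, differed by 0.51 (SE 0.31), S100A12 by 0.56 (SE 0.48) and S100A7A by 0.66 (SE 0.47), with overlap in each. S100A12 stood at 0.060 without vehicle 3 and at 0.966 without vehicle 2.
Hemidesmosome, laminin-332 and integrin genes, which anchor basal cells to the matrix, had a median of -0.162 with 8 of 13 below vehicle and 0 at an unadjusted p under 0.05, and the median was -0.006 without vehicle 3 and -0.121 without alpelisib 1. PLEC, plectin, differed by -0.21 (SE 0.17), ITGB1 by -0.17 (SE 0.17) and COL17A1 by -0.19 (SE 0.19). Of 22 lineage regulators and uroplakins, 16 were above vehicle, with a median of 0.103 that was -0.028 without alpelisib 1. ELF3, an epithelial transcription factor of differentiation, read 463, 315, 531 and 495 with vehicle and 646, 744, 1217 and 475 with alpelisib (log2 0.71, SE 0.28, and 0.466 without alpelisib 3). It was the 1 member with an unadjusted p under 0.05 (1.69% of all genes were higher at that p). GATA3 differed by 0.57 (SE 0.29) and GRHL3, a factor needed for the skin barrier, by 0.65 (SE 0.36).

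**Figure D3:**
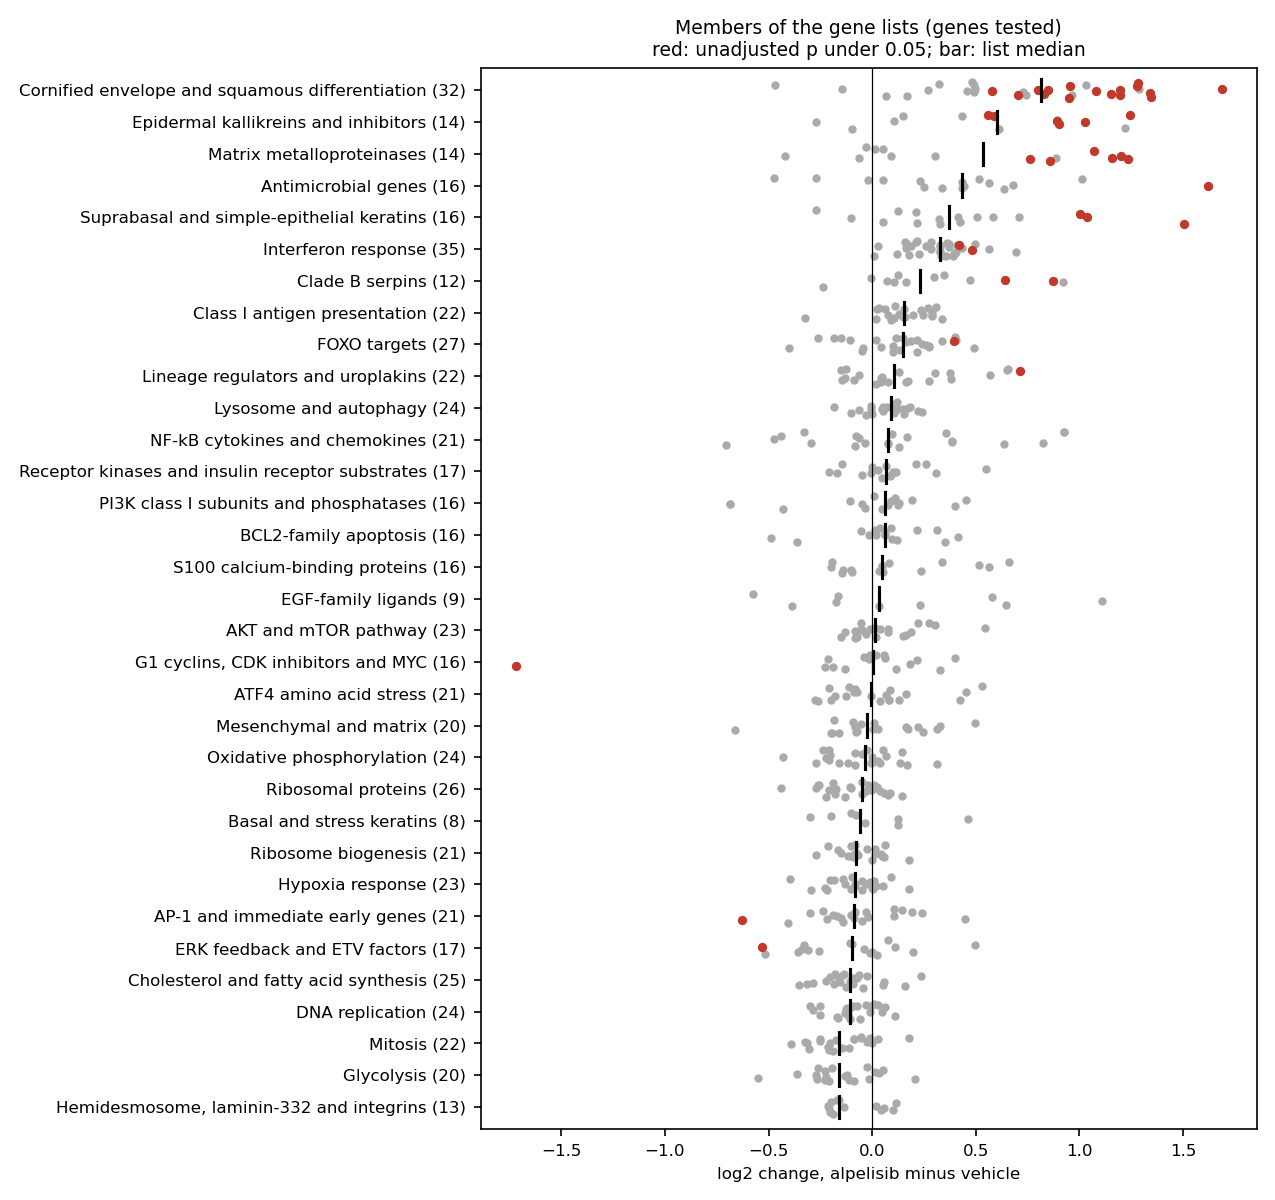
Log2 difference, alpelisib minus vehicle (horizontal axis), of every tested member of the 33 gene lists (rows, with the number tested), red where the unadjusted p is under 0.05, black bars the list medians. Medians run from 0.815 for the cornified envelope list to -0.162 for the hemidesmosome list, and most red points lie in the uppermost rows.

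Secreted defence proteins and matrix proteases also had medians above 0. LCN2, lipocalin 2, which withholds iron carriers from bacteria, read 200, 104, 150 and 74.6 with vehicle and 458, 372, 622 and 200 with alpelisib (log2 1.62, SE 0.38; adjusted p = 0.986). Its lowest alpelisib value was level with its highest vehicle value. LCN2 was the 1 of 16 antimicrobial genes with an unadjusted p under 0.05 (1.69% of all genes were higher at that p). In that list 13 were above vehicle and the median was 0.433. SLPI, a secreted protease inhibitor, differed by 0.43 (SE 0.22).
Matrix metalloproteinases and their inhibitors, 14 tested, had 11 above vehicle and a median of 0.533. An unadjusted p under 0.05 was seen in 6, all higher (1.69% of all genes were). MMP1, interstitial collagenase, read 532, 763, 609 and 893 with vehicle and 854, 2153, 1602 and 2295 with alpelisib (log2 1.23, SE 0.34). MMP10, stromelysin 2, read 801, 370, 1182 and 1159 with vehicle and 1004, 1394, 2834 and 2845 with alpelisib (log2 1.20, SE 0.32). MMP13, collagenase 3, read 311, 324, 292 and 303 with vehicle and 377, 680, 754 and 502 with alpelisib (log2 0.86, SE 0.26). In MMP1, MMP10 and MMP13, alpelisib 1 was the lowest alpelisib library, the opposite of its place in CDSN, LOR, FLG and IVL. The list median was 0.285 without alpelisib 2. Mesenchymal and matrix genes had a median of -0.025 over 20 members with 10 on each side and 0 at an unadjusted p under 0.05. It was 0.050 without vehicle 3 and 0.058 without alpelisib 2. CD44 differed by -0.16 (SE 0.15), SNAI2 by -0.19 (SE 0.19) and ZEB1, at values under 18, by -0.66 (SE 0.67).

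Interferon response genes stood above vehicle without exception but by little. All 35 were above vehicle, with a median of 0.327, and 2 had an unadjusted p under 0.05 against 1.69% of all genes. RSAD2, an antiviral enzyme, read 615, 556, 819 and 951 with vehicle and 893, 1052, 1500.5 and 1296 with alpelisib (log2 0.69, SE 0.35). IFIT3, an interferon-induced RNA-binding cofactor, read 3604, 3090, 4266 and 4542 with vehicle and 4990, 4850, 6536 and 5196 with alpelisib (log2 0.48, SE 0.23), and did not overlap. BST2, tetherin, which holds budding virus at the cell surface, differed by 0.42 (SE 0.19) and overlapped. The list score was 0.284, 0.124, 0.656 and 0.170 in alpelisib 1 to 4 and 0.073, -0.220, 0.027 and 0.219 in vehicle 1 to 4, so vehicle 4 lay above alpelisib 2 and 4. Without alpelisib 3, the library with the high macrophage sum, the median was 0.201 with 32 of 35 above vehicle and 0 at an unadjusted p under 0.05. Without vehicle 2 it was 0.268 with 31 of 35, also with 0 at that p, and scaled to human plus mouse reads it was 0.279 with 33 of 35.
Class I antigen presentation had 21 of 22 members above vehicle and a median of 0.152, with 0 at an unadjusted p under 0.05 (18 of 22 and 0.103 when scaled to human plus mouse reads). PSMB9, an immunoproteasome subunit, differed by 0.34 (SE 0.21), TAP1, the peptide transporter, by 0.24 (SE 0.17) and ERAP2, a peptide-trimming enzyme, by 0.29 (SE 0.22). NF-kB cytokines and chemokines split, with 12 above and 9 below and a median of 0.076, which was -0.066 without alpelisib 2 and 0.181 without alpelisib 4. In that list IL1RN and IL36RN, which encode antagonists of interleukin 1 and interleukin 36 receptors, did not overlap between groups. Among all genes 1.23% lay wholly above vehicle. The unadjusted p by limma was 0.0786 for IL1RN and 0.0734 for IL36RN. IL36RN read 13.3, 15.6, 18.7 and 17.0 with vehicle and 26.6, 36.6, 28.9 and 34.6 with alpelisib (log2 0.93, SE 0.49). IL1RN differed by 0.36 (SE 0.19), while IL36G, an interleukin 36 agonist at values under 16, overlapped (log2 0.63, SE 0.64).

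The targeted kinase and its pathway were close to vehicle at the transcript level, which is not a measure of kinase activity. PIK3CA read 42.9, 65.9, 74.7 and 55.4 with vehicle and 59.2, 65.8, 71.4 and 54.5 with alpelisib (log2 0.09, SE 0.37), and the groups lay on top of each other. PIK3CB, the beta isoform that alpelisib largely spares, differed by 0.05 (SE 0.19) and PIK3R1, the regulatory subunit, by -0.11 (SE 0.23). PIK3CD differed by -0.69 (SE 0.44). Of 16 class I subunits and phosphatases, 0 had an unadjusted p under 0.05 and the median was 0.062, or 0.022 without alpelisib 4. PHLPP1, a phosphatase of AKT, was the 1 member without overlap (1.23% of all genes lay wholly above). It read 118, 132, 150 and 153 with vehicle and 200, 208, 174 and 176 with alpelisib (log2 0.45, SE 0.22). PIK3IP1, a membrane inhibitor of p110 that is also in the FOXO target list, differed by 0.40 (SE 0.20).
Receptor kinases and insulin receptor substrates, which are known to be induced when AKT is inhibited in other cells, had a median of 0.068 over 17 members with 11 above vehicle, and 0 had an unadjusted p under 0.05. The median was -0.012 without vehicle 2 (7 of 17 above) and also -0.012 without alpelisib 3 (8 of 17). ERBB3 differed by 0.26 (SE 0.17), INSR by 0.10 (SE 0.24), IRS2 by -0.05 (SE 0.27), FGFR2 by 0.31 (SE 0.21) and FGFR3 by 0.21 (SE 0.20). AKT and mTOR pathway genes had a median of 0.014 with 12 of 23 above vehicle, and the median ran from -0.037 without vehicle 2 to 0.107 without vehicle 1 (-0.0087 without alpelisib 3, and -0.035 when scaled to human plus mouse reads). Among them were TSC1 at 0.30 (SE 0.25), RHEB at 0.19 (SE 0.19) and SESN2 at 0.16 (SE 0.18).
FOXO target genes had 20 of 27 members above vehicle and a median of 0.149 (0.086 without vehicle 2 and 0.234 without vehicle 4). At an unadjusted p under 0.05 there was 1, higher with alpelisib (1.69% of all genes were). That gene was TXNIP, a brake on glucose uptake, at 2371, 2842, 3526 and 2757 with vehicle and 4154, 3401, 4866 and 2837 with alpelisib (log2 0.39, SE 0.19). TNFSF10, the death ligand TRAIL, differed by 0.49 (SE 0.28). Scores of the list in alpelisib libraries (0.022 to 0.264) lay within the vehicle range (-0.228 to 0.261) but for 1 library.

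Downstream of RAS, the ERK feedback and ETV list had 11 of 17 members below vehicle and a median of -0.099, which ran from -0.230 without vehicle 2 to -0.016 without vehicle 3. DUSP6 was the 1 with an unadjusted p under 0.05, against 0.793% of all genes lower at that p. ETV5, an ERK-induced transcription factor, differed by -0.52 (SE 0.25), and EPHA4 by 0.49 (SE 0.28). AP-1 and immediate early genes had 15 of 21 below vehicle and a median of -0.087, which was 0.061 without alpelisib 4 and -0.262 without alpelisib 3. EGR1, an immediate early transcription factor, read 1440, 2943, 2178 and 2353 with vehicle and 1698, 1214, 2055 and 898 with alpelisib (log2 -0.63, SE 0.26, and -0.415 without alpelisib 4). It was the 1 member with an unadjusted p under 0.05, and vehicle 1 lay among the alpelisib values. CYR61 differed by -0.41 (SE 0.32) and EGR3, at values under 37, by 0.45 (SE 0.44). EGF-family ligands had a median of 0.031 over 9 members, which was -0.150 without alpelisib 2, -0.018 without alpelisib 4 and -0.017 when scaled to human plus mouse reads. AREG, amphiregulin, was 0 in all vehicle libraries and 1.19 on average with alpelisib, which rests on a few reads. EREG, epiregulin, differed by -0.39 (SE 0.36), NRG2 by 0.58 (SE 0.35) and NRG4, at values under 6, by -0.57 (SE 0.64).

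Genes of division were slightly lower. In the mitosis list 20 of 22 were below vehicle with a median of -0.159, 0 had an unadjusted p under 0.05, and CDC20 was the 1 without overlap (0.685% of all genes lay wholly below). CDC20, an activator of the anaphase-promoting complex, read 2498, 1954, 2076 and 1921 with vehicle and 1678, 1689, 1691 and 1700 with alpelisib (log2 -0.31, SE 0.20), with nearly equal alpelisib values. UBE2C differed by -0.25 (SE 0.15) and PLK1 by -0.39 (SE 0.26). The mitosis median was -0.074 without alpelisib 3. DNA replication genes had 19 of 24 below vehicle and a median of -0.109, which was -0.025 without alpelisib 3, with LIG1 at -0.30 (SE 0.20), GINS2 at -0.25 (SE 0.21) and CDC45 at -0.25 (SE 0.21). In both lists no more than 1 member was separated and 0 had an unadjusted p under 0.05.
G1 cyclins, CDK inhibitors and MYC genes had a median of 0.0031, from -0.054 without vehicle 2 to 0.054 without vehicle 4, and it was also below 0 without alpelisib 1 or alpelisib 3 and, at -0.045, when scaled to human plus mouse reads. CDKN1A, the inhibitor p21, differed by 0.33 (SE 0.28), and stood at 0.046 without vehicle 2 and 0.064 without alpelisib 3. CCND2 differed by 0.40 (SE 0.32) and CDK2 by -0.21 (SE 0.19). MYCN was the 1 member with an unadjusted p under 0.05 (0.793% of all genes were lower at that p). Its mean was 3.76 with vehicle and 0.190 with alpelisib, that is, on a few reads. BCL2-family genes had 12 of 16 above vehicle and a median of 0.062, which was 0.0040 without vehicle 3 (9 of 16 above) and 0.170 without vehicle 1, with BID at 0.41 (SE 0.27), BBC3 (PUMA) at 0.35 (SE 0.24) and BCL2L11 (BIM) at 0.22 (SE 0.18).

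Metabolic lists had small medians and 0 members at an unadjusted p under 0.05. Cholesterol and fatty acid synthesis had 21 of 25 below vehicle, with a median of -0.106 that was -0.215 without vehicle 2 and -0.063 without vehicle 1. SQLE, squalene epoxidase, differed by -0.35 (SE 0.18), CYP51A1 by -0.28 (SE 0.16) and MVD by -0.31 (SE 0.25). Glycolysis had 16 of 20 below vehicle and a median of -0.160. GAPDH read 133126, 78415, 125288 and 125828 with vehicle and 100213, 80668, 89383 and 83299 with alpelisib (log2 -0.36, SE 0.30), so vehicle 2 sat at the level of the alpelisib group. The glycolysis median was -0.393 without vehicle 2 and 0.016 without vehicle 3, and the result therefore rests on which vehicle libraries enter. PFKP differed by -0.23 (SE 0.20) and GPI by -0.22 (SE 0.20). The hypoxia list had 17 of 23 below vehicle and a median of -0.085, which was -0.257 without alpelisib 3 and 0.077 without vehicle 3, and above 0 also without vehicle 4, alpelisib 2 or alpelisib 4, with P4HA2 at -0.23 (SE 0.21), LOX at -0.40 (SE 0.39) and VEGFA at -0.22 (SE 0.23).
Oxidative phosphorylation had a median of -0.037 over 24 members, which was 0.032 without vehicle 2 (15 of 24 above), 0.0044 without alpelisib 3 and -0.119 without alpelisib 4, with ATP5B at -0.24 (SE 0.16) and NDUFS3 at -0.22 (SE 0.18). Ribosomal proteins had 18 of 26 below vehicle and a median of -0.050, which was 0.019 after quantile normalization, -0.0034 without alpelisib 1 and -0.121 without vehicle 3. RPL32 differed by -0.44 (SE 0.32), RPL27 by -0.26 (SE 0.22) and RPLP0 by -0.26 (SE 0.24). Ribosome biogenesis had a median of -0.081, which was 0.0074 without vehicle 2 and -0.0030 without alpelisib 3, with FBL at -0.21 (SE 0.19), NOP16 at -0.27 (SE 0.25) and NOP14 at -0.16 (SE 0.17). The ATF4 amino acid stress list had a median of -0.0036, from -0.082 without alpelisib 4 to 0.077 without vehicle 1, and above 0 also without alpelisib 1 or alpelisib 2 and, at 0.020, when scaled to human reads, with NUPR1 at 0.45 (SE 0.25), SLC7A5, the leucine transporter, at -0.28 (SE 0.17) and VLDLR at 0.42 (SE 0.30). Lysosome and autophagy genes had 18 of 24 above vehicle and a median of 0.089, which was -0.0073 with 11 of 24 above without vehicle 2, with HEXA at 0.24 (SE 0.21), GLA at 0.22 (SE 0.24) and LAMP2 at 0.12 (SE 0.14).

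**Figure D4:**
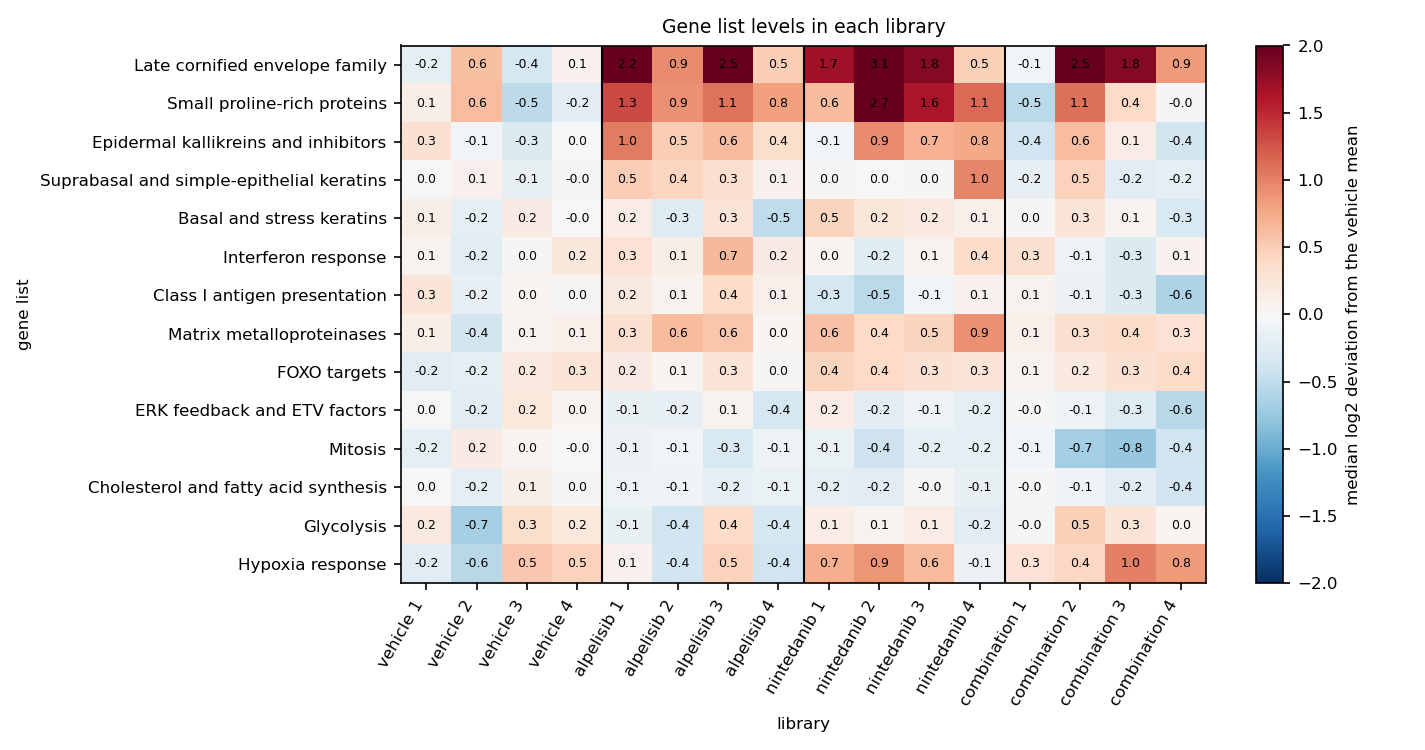
Score of 14 gene groups (rows) in each of the 16 libraries (columns), as the median over members of the log2 deviation from the vehicle mean, with values printed in the cells. The late cornified envelope row is highest in alpelisib 1 and 3 (2.16 and 2.46) among the 8 libraries compared, and the nintedanib libraries reach 3.08.

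The same drug was then compared where nintedanib was present in both groups, the combination against nintedanib alone. The group means share no library with the comparison above, but the limma p-values of both use the same spread per gene, from all 16 libraries. There too 0 of 17663 genes had an adjusted p under 0.05 by limma, and 712 (4.03%) were higher and 926 (5.24%) lower at an unadjusted p under 0.05. Most genes on the higher side with alpelisib alone were not higher there. Of the 298 genes higher with alpelisib alone, 116 were higher and 181 lower when it was added to nintedanib, with 11 at an unadjusted p under 0.05 in the same direction and 31 in the opposite one. Of the 140 lower genes, 65 were lower and 75 higher, with 3 and 6 at that p in the same and the opposite direction.
Of the 40 genes between the S100A genes, 37 were lower with the combination than with nintedanib, with a median of -0.626 and 10 at an unadjusted p under 0.05, all lower. Without nintedanib 4 and combination 1, both rich in mouse skeletal muscle transcripts, 34 of 40 were lower and the median was -0.570 (7 at that p). Without combination 1 alone 30 of 40 were lower and the median was -0.375 (6 at that p), without nintedanib 2 it was -0.382, and without combination 2 it was -0.931 (19 at that p). Kallikreins and their inhibitors had a median of -0.713, with 12 of 14 lower and 7 at an unadjusted p under 0.05.
Nintedanib alone stood high in these genes. SPRR2G was 2247 ± 1702 (SD, n = 4) with nintedanib and 1000.4 ± 369 (SD, n = 4) with the combination, beside 526 ± 129 with vehicle and 1568 ± 278 with alpelisib. The 4 nintedanib libraries varied widely, with a late cornified envelope score of 1.70, 3.08, 1.83 and 0.479, and the combination libraries did too, with -0.061, 2.49, 1.84 and 0.852. WFDC12 was 113 ± 52.3 with nintedanib and 108 ± 54.0 with the combination (SD, n = 4), both near the 112 of alpelisib alone.

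The difference between both settings was tested as an interaction. At an adjusted p under 0.05 it gave 0 genes by limma and 10 by DESeq2, the latter being ALOX12B, CDSN, KLK7, KLK10, KLK11, MMP13, SPINK5, SPRR2G, SULT2B1, a sulfotransferase of cholesterol, and WFDC12. At an unadjusted p under 0.05, the alpelisib effect was lower with nintedanib in 657 genes (3.72%) and higher in 443 (2.51%). The block on chromosome 1 held 27 of 40 genes on the lower side, and the cornified envelope list 20 of 32. The values of alpelisib alone, by which the block was noticed, enter this difference. The 5 genes with the smallest p were MMP13 (-1.98, SE 0.36), CDSN (-2.52, SE 0.49), KLK10 (-1.34, SE 0.26), SPRR2G (-2.53, SE 0.51) and SPRR2E (-2.66, SE 0.54), each with an adjusted p of 0.205 by limma. Their log2 difference with alpelisib alone was above 0 and with alpelisib added to nintedanib below 0: MMP13 read 574 ± 156 with nintedanib and 272 ± 100.1 with the combination (SD, n = 4), and KLK10 1245 ± 287 and 734 ± 141.
Averaged over both settings, the effect of alpelisib gave 0 genes at an adjusted p under 0.05 by limma, with 732 at an unadjusted p under 0.05, and the block on chromosome 1 had a median of 0.166. Interferon response genes had a median of -0.034 on nintedanib with 15 of 35 above it. At an unadjusted p under 0.05, 5 of them were lower and 0 higher. The mitosis list, lower with alpelisib alone, had a median of -0.264 there, with 17 of 22 lower and 4 at that p. DNA replication, also lower with alpelisib alone (median -0.025 without alpelisib 3), was higher on nintedanib. Its median was 0.186 with 17 of 24 higher, and 3 were higher and 1 lower at that p. The medians of glycolysis (0.183, 18 of 20 higher) and hypoxia (0.144, 16 of 23 higher) also stood above 0 on nintedanib. Neither list had a member at an unadjusted p under 0.05 in either setting. With alpelisib alone their signs were not stable, and without vehicle 3 their medians were 0.016 and 0.077. How far the medians of these lists on nintedanib rest on single libraries was not tested.

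**Figure D5:**
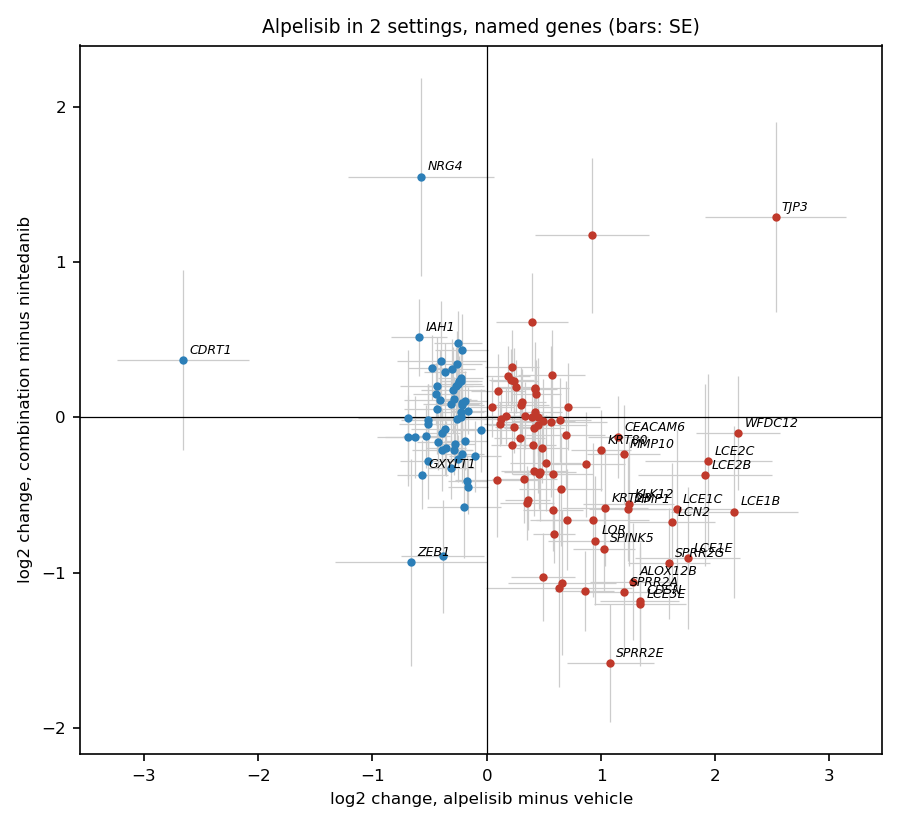
Log2 difference of the named genes for alpelisib minus vehicle (horizontal axis) and for the combination minus nintedanib (vertical axis), points with SE bars, red where the first is above 0 and blue where it is below. TJP3, at a few reads per library, lies farthest right, followed by WFDC12 and LCE1B (2.20 and 2.17), and the labelled envelope, kallikrein and protease genes lie right of 0 and below 0.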

How the data were processed

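Gene-level values of 16 xenograft libraries were analysed, and only the human table enters the tests of genes. The mouse table enters the test of the mouse share of reads, the sums of host markers and the correlations between species. Libraries were made with a 3′ end kit (QuantSeq, Lexogen), per the labels' protocols. Reads were mapped separately to each species, per the series' design text, with TopHat and the builds hg19 and mm10 per the submitters' processing notes. How reads were counted, annotated and scaled is not given in the sources used here. The deposited values are a normalized signal. Whole reads divided by 1 factor per library were recovered from them (100% of values whole within 0.01). Columns not in the labels numbered 0.

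The plan set out a test for counts and one for normalized values, and the latter was used. log2(value + 1) was fitted with limma 3.58.1 (trend) in R 4.3.3, with 1 mean for each of the 4 groups over all 16 libraries and Benjamini-Hochberg adjustment at 0.05. edgeR 4.0.16 and DESeq2 1.42.0 were run on recovered reads as alternatives. A fold change on the log2(value + 1) scale understates that of low genes. The reads carry no molecular identifiers, so depth speaks of counting error only. Steps were tested on simulated data.

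Named genes are the 12 higher and 12 lower genes by p among those of at least median expression without overlap, up to 3 members of each of 33 lists with a mean of at least 5, the drug target's pathway, 5 genes for the interaction and cell markers. Others are said to be picked after their values were seen. Some genes the rule names are not reported here. The members and lists were chosen with earlier results of these data known. Gene order comes from RefSeq (GRCh38.p14), used for names and neighbours only, since the build differs.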

Additional observations from a re-analysis of the deposited data

Results flagged for a closer look

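Among 350 groups of 4 libraries checked, 19 had 1 library far from the other 3 by Dixon's criterion. That is near the share of about 5% that chance gives. The summed mouse skin and hair markers stood at 13250 in alpelisib 1, against 1790 to 2811 in the others of its group. The adipocyte sum was 23370 in vehicle 1 against 356 to 1728, and the macrophage sum was 33930 in alpelisib 3 against 21400 to 21780. In vehicle libraries, GAPDH was 78410 in vehicle 2 against 125300 to 133100, IL1RN was 1058 in vehicle 2 against 1352 to 1397, and CCNF was 859 in vehicle 1 against 626 to 659. RPL27 was 19700 in vehicle 3 against 24640 to 25290, and RPLP0 was 58550 in vehicle 1 against 47810 to 49280. In alpelisib libraries, P4HA2 was 919.0 in alpelisib 3 against 595 to 624, IRS2 was 1289 in alpelisib 3 against 727 to 784, S100A7A was 28.3 in alpelisib 4 against 83.9 to 98.0, and INSR was 113 in alpelisib 4 against 89.6 to 92.6. CDRT1 was 1.05 in alpelisib 4 and TJP3 was 0.849 in vehicle 3, against 0 in the other libraries of each group.

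List scores stood apart in 5 cases. Glycolysis was -0.665 in vehicle 2 against 0.191 to 0.344, and matrix metalloproteinases were -0.361 in vehicle 2 against 0.065 to 0.139, so vehicle 2 stood apart in GAPDH, IL1RN and both of these lists. PI3K subunits and phosphatases were -0.177 in vehicle 1 against 0.050 to 0.083. In alpelisib 3, receptor kinases were 0.169 against -0.006 to 0.005 and hemidesmosome genes were 0.214 against -0.300 to -0.257.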

How the results depend on the processing

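The count of genes past the threshold for alpelisib against vehicle was 0 under every alternative run except the replicate block and DESeq2, each of which gave 1, WFDC12. Its log2 difference ran from 2.04 to 2.38 over 21 alternatives, with adjusted p from 5.35e-05 (DESeq2) to 0.718 (without alpelisib 2). For alpelisib added to nintedanib the count was 2 without the trend (HIST4H4 and NBPF14), 1 with no filter, and 0 to 123 when each library was left out, the highest without combination 4. For the interaction it was 2 without the trend (HIST4H4 and ZNF192), 3 with the replicate block (CDSN, LCE3E and SPRR2E), 10 with DESeq2, and 0 to 8 when each library was left out (3 without nintedanib 1, 8 without combination 2). The averaged effect gave 1 without the trend (NBPF14) and 0 to 1 when each library was left out (without combination 4). The mouse share differed by 2.80 to 5.53 points when each library was left out. The cause of these shifts was not tested. Of 130 named genes, 4 turned direction: when each library was left out PIK3CA ran from -0.055 to 0.207, PIK3CB from -0.051 to 0.183, PIK3R1 from -0.178 to 0.033 and IRS2 from -0.264 to 0.202, and PIK3CB was -0.0027 when scaled to human plus mouse reads. Of these 130, 60 moved by over 1.5 times when some 1 library was left out, and of 33 list medians 16 changed sign. Scaling and the omission of the muscle-rich libraries were added after seeing the data. Same-numbered libraries did not deviate together (correlations -0.115, 0.148, 0.086 and -0.045, and 1 of 4 numbers matched its own best), so the replicate block is no paired test. The 40 genes between the S100A genes on chromosome 1 kept a median between 0.911 and 1.31 under all 21 alternatives. Genes with values of a few reads, such as TJP3, CDRT1, MYCN and AREG, cannot be ranked at this depth.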
